A study of Mus musculus with 12 samples.

Results

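Mbl2, the gene of mannose-binding lectin C, was measured in gut epithelial cells of WT and Chd8L+/- mice, and its level is described here in each mouse and beside that of other genes. It is 1 row of 14244 gene rows, found by its symbol, and was chosen by the size of the genotype difference in its normalized read counts, in these same libraries. For that reason the values of Mbl2 by genotype are a description, and no test of its own difference was made.

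Mannose-binding lectins are secreted collectins, proteins with a collagen-like stalk and C-type lectin heads that bind mannose and related sugars on microbial surfaces. Bound to such a surface, they activate the MASP proteases, which cut C4 and C2 and so start the lectin pathway of complement. The liver is the best known source of the plasma protein, and in mice Mbl2 is also known to be expressed in the small intestine. Ficolins do the same work with a different sugar-binding head.

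The samples came from male littermates on the C57BL/6 background, 8 weeks old, 5 of them WT and 7 heterozygous for a germline deletion of exons of the large isoform of Chd8, a chromatin remodeler (Chd8L+/-). Each library is poly(A) RNA of the epithelial cells shaken off intestinal sections of 1 mouse, and neither genotype was treated. The values are normalized read counts, meaning reads per gene divided by a size factor of the library, and the reads behind them could be recovered. Libraries held between 15691662 and 20761315 reads counted on genes.

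The reads counted on Chd8 as a whole ranged from 823 to 1050 in the WT libraries and from 1084 to 1483 in the Chd8L+/- libraries, so that every Chd8L+/- library was above every WT library, a lack of overlap that 0.515% of the 12808 tested genes shared. The WT mean was 953 ± 85.5 (SD, n = 5). That of Chd8L+/- mice was 1297 ± 123 (SD, n = 7), a log2 difference of 0.44 (adjusted p = 0.121, limma; 0.00676 without WT replicate 2). A count over the whole gene does not separate the deleted exons from the others, so it neither checks the labels nor goes against them, and the genotype names used below are those of the labels. WT replicate 2 stood apart from the other WT libraries. On the first principal component of all tested genes, which held 39.7% of the variance, it lay at 41.0, where the other WT libraries lay between −67.5 and −26.2 and the Chd8L+/- libraries between 0.26 and 42.7. Many of the results that rest on this library are therefore given with and without it. The 9 epithelial markers, among them Epcam and Vil1, were all measured, with a summed level of 170698 to 300966 in WT and 165026 to 293879 in Chd8L+/- libraries.

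Mbl2 (ENSMUSG00000024863.6) lies on the plus strand of mouse chromosome 19 (mm10, 30232942 to 30239687). The GENCODE annotation gives it 1 transcript of 6 exons and 1089 bases, of which 537 belong to exon 6, and 0 other genes overlap it, so its reads have no annotated partner on either strand with which they could be confused. The region just upstream of the gene is shown to place the gene on the genome and to give the letters that binding motifs of liver and gut transcription factors would need. It covers chr19:30232678-30232905 (GRCm38.p6, plus strand, RefSeq promoter table) and ends at the base before the earliest RefSeq start of the gene. The capitals mark motif matches.
Mbl2 upstream region: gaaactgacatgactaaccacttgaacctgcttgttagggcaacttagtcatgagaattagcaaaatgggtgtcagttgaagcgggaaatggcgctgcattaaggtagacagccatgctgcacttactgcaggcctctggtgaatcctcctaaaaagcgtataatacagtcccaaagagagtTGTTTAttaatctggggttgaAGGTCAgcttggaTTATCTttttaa

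In these 228 bases, TGTTTA, the core of the forkhead motif, stands at positions 183 to 188 from the 5′ end. AGGTCA, the half-site of many nuclear receptors, stands at positions 204 to 209. The GATA motif AGATAA was matched on the minus strand at positions 217 to 222, where the printed strand reads TTATCT. These letters are common: of 32851 promoter windows of the same length in the RefSeq table, 11.3% held TGTTTA on either strand, 12.9% held AGGTCA and 9.43% held AGATAA. The STAT motif TTCNNNGAA and the glucocorticoid receptor half-site AGAACA had 0 matches on either strand here, against 6.44% and 14.9% of the windows. No match overlapped another. A match is a description of letters and not of a bound site.

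Mbl2 was among the well expressed genes of 4 WT libraries and stood lower in all other libraries. In those others, 52.1% to 81.3% of genes were below Mbl2 per kilobase of exon. Its normalized read count was 1934, 223, 4653, 2242 and 3419 in WT replicates 1 to 5. In the 7 Chd8L+/- libraries it was 68.1 at the lowest, 155 at the median and 282 at the highest. The groups overlapped because of WT replicate 2 alone, which lay above 5 and below 2 of the Chd8L+/- libraries. The other 4 WT libraries were all higher than every Chd8L+/- library, and the lowest of them was 6.85-fold above the highest Chd8L+/- library. Without WT replicate 2, 7.72% of tested genes were lower in Chd8L+/- libraries with no overlap of the groups. Since Mbl2 was chosen on this contrast, its place among them is no further evidence.

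**Figure D1:**
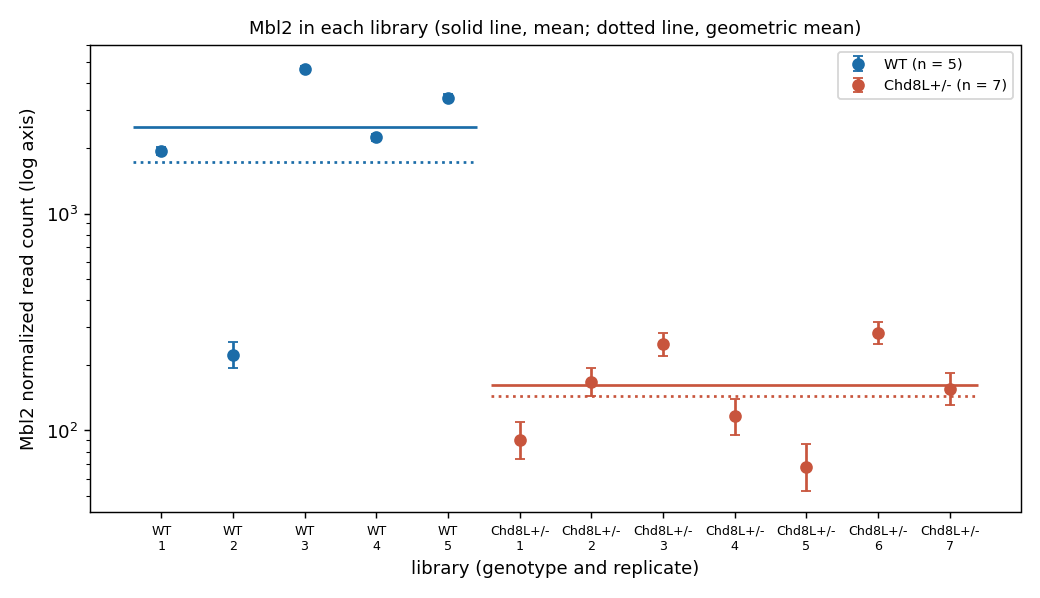
Normalized read count of Mbl2 (log axis) in each of 5 WT and 7 Chd8L+/- libraries, with exact Poisson 95% intervals of the recovered reads, the mean of each genotype as a solid line and the geometric mean as a dotted line. WT replicates 1, 3, 4 and 5 sit between 1934 and 4653, and WT replicate 2, at 223, lies within the Chd8L+/- range of 68.1 to 282.

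Counting error was small against these gaps. The highest library, WT replicate 3, rested on 4615 recovered reads, with an exact Poisson 95% interval of its normalized count from 4520 to 4789. The lowest, Chd8L+/- replicate 5, rested on 65 reads, with an interval from 52.6 to 86.8. These intervals cover counting error only, as the reads carry no molecular identifiers. In descending order the libraries ran WT replicate 3, 5, 4 and 1, then Chd8L+/- replicates 6 and 3, then WT replicate 2, then Chd8L+/- replicates 2, 7, 4, 1 and 5. For each of the first 4 the interval ended above that of the next library. Below them most neighbours in the order had overlapping intervals. This held for Chd8L+/- replicates 6 and 3 and WT replicate 2, and for neighbours among Chd8L+/- replicates 2, 7, 4, 1 and 5. Overlap of intervals does not test a difference between libraries, and the order of these was not tested. WT replicate 2, with an interval from 195 to 255, did stand above Chd8L+/- replicate 2, whose interval ended at 194.

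Mbl2 averaged 2494 ± 1662 over the WT libraries (SD, n = 5). Over the Chd8L+/- libraries it averaged 162 ± 79.9 (SD, n = 7). On the scale of log2(value + 1) the Chd8L+/- mean was −3.57 from the WT mean (SE 0.62), an 11.9-fold lower geometric mean. Without WT replicate 2 the WT mean was 3062 ± 1239 (SD, n = 4) and the difference −4.31 (SE 0.37), which is 19.8-fold. By absolute log2 difference Mbl2 ranked 1 of 12808 genes with a mean of at least 10, and 1 of 12807 without that library. Across all tested genes the median log2 difference was 0.01. In bulk RNA of this kind, fewer cells that express a gene and less of its RNA per cell cannot be told apart.

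Per kilobase of exon, Mbl2 ranked 204 of the annotated genes in WT replicate 3, with 98.5% of genes below it, and 6735 in Chd8L+/- replicate 5, with 52.1% below it. In WT replicate 2 it ranked 3134. From the highest to the lowest library its normalized count spanned 68.3-fold. The span was 20.8-fold within WT, 2.41-fold within WT without replicate 2 and 4.14-fold within Chd8L+/-. The gene was thus also variable within a genotype. Its SD of log2 levels was 1.72 among the 5 WT libraries, larger than that of 99.0% of tested genes, and 0.74 among the Chd8L+/- libraries, larger than that of 89.3%. Among the 4 other WT libraries the SD was 0.58, larger than that of 84.0% of genes. The median SD of all genes was 0.35 in WT and 0.31 in Chd8L+/-.

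The library names carry a letter and a number whose meaning the labels do not give, and the difference kept its direction within each that held both genotypes. Within number 2 the WT library had 1934 and the Chd8L+/- library 168. Within number 3 the WT libraries had 223 and 2242 and the Chd8L+/- library 90.7. Within number 20 the values were 4653 and 68.1, and within number 22 the WT library had 3419 and the Chd8L+/- libraries 155 and 250. Mbl2 was therefore lower in the Chd8L+/- libraries at every shared number, by log2 differences of −6.07 to −2.95. Within the letters A, B and C the log2 differences were −1.94, −5.33 and −4.83. In letter A alone the groups overlapped, as it holds WT replicate 2 with 223 and a Chd8L+/- library with 250.

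Among the collectins and ficolins, Fcna, the gene of ficolin A and the closest in function to Mbl2 of those measured, had the same order of groups as Mbl2. Its normalized count was 67.6, 16.2, 145, 155 and 152 in WT replicates 1 to 5, and 6.29 at the lowest, 23.3 at the median and 40.0 at the highest of the Chd8L+/- libraries. As for Mbl2, WT replicate 2 lay within the Chd8L+/- range and the other 4 WT libraries did not overlap it. The log2 difference of Fcna was −1.97 (SE 0.57, adjusted p = 0.121, limma), and −2.54 without WT replicate 2 (adjusted p = 0.00371, limma). In this fit 3 of 12808 genes were called at an adjusted p of 0.05, which is 0.0234% of them, and 3534 of 12807, or 27.6%, without WT replicate 2. Of the genes tested 24.3% had an unadjusted p of 0.05 or less with all libraries. Whether Fcna is called therefore rests on that library and on the fit: DESeq2 on the recovered reads of all 12 called it (adjusted p = 0.0045), and so did limma with the letter of the library name as a block (adjusted p = 0.0481). Its adjusted p ran from 4.22e-07 to 0.344 over the alternatives tried. Colec10 and Colec12, membrane or soluble collectins of other tissues, had means over all libraries of 3.5 and 3.1 normalized reads and were not tested. Mbl1, the other mannose-binding lectin of the mouse, was not analysed here, nor were Colec11, Sftpa1, Sftpd and Fcnb.

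The partners of Mbl2 did not fall with it as a group. Of 57 listed genes of the lectin pathway and complement other than Mbl2, 38 were in the table and 32 had a mean of at least 10. Of these, 12 were lower and 20 higher in Chd8L+/- mice, with a median log2 difference of 0.29, and 0 were called by limma, while 4 lower and 8 higher ones had an unadjusted p of 0.05 or less, beside 11.8% and 12.5% of all genes. DESeq2 on the recovered reads called 3 of them, where it called 6.29% of all genes, and edgeR called 0, where it called 0.039%. Without WT replicate 2, 3 were called lower and 7 higher of 31 tested, beside 13.6% and 14.0% of all genes. The lists were drawn up with results of these data known, so their counts are no independent evidence of a direction.

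The MASP proteases that Mbl2 activates, Masp1 and Masp2, were not analysed here. Of their inhibitors, Serping1, the C1 inhibitor, had means of 11.2 in WT and 20.4 in Chd8L+/- mice (log2 difference 0.77, adjusted p = 0.447, limma), and Serpinc1, antithrombin, had 27.8 and 16.6 (−0.73, adjusted p = 0.175). Tfpi, the tissue factor pathway inhibitor, had 64.8 and 111 (0.82, adjusted p = 0.138), and passed the test without WT replicate 2 (0.96, adjusted p = 0.0351) and with the letter block (adjusted p = 0.0470). Of the components downstream of Mbl2, C4b and C3 had log2 differences of 1.15 (adjusted p = 0.203) and 0.91 (adjusted p = 0.485), C2 one of −0.41 and C8g one of −0.07. By limma none of these 4 was called with or without WT replicate 2. DESeq2 without that library called C3 (adjusted p = 0.0173) and C4b (adjusted p = 0.0221) higher.

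C1q is the sugar-independent counterpart of Mbl2 that starts the classical pathway, and its genes went the other way. C1qa averaged 42.3 in WT and 90.3 in Chd8L+/- libraries (log2 difference 1.12, adjusted p = 0.128, limma), C1qb differed by 0.97 and C1qc by 1.33, and C1s1, the protease, by 2.14. These 4 have the smallest p of the 8 tested genes that start the classical and alternative pathways, of which 2 were lower and 6 higher. Without WT replicate 2 limma called these 4 of the 8 higher, with adjusted p from 0.0115 (C1qa) to 0.0479 (C1qb), where it called 14.0% of all genes higher. Macrophages are the usual source of C1q. The summed level of the 8 measured myeloid markers was 1257 to 1559 in the 4 other WT libraries, 3207 in WT replicate 2 and 1805 to 3907 in the Chd8L+/- libraries. Most of this sum is Lyz2, at 880 to 1211, 2606 and 1246 to 2927. Lyz1, on the Paneth cell list, had 12289 to 18037, 40126 and 18682 to 41215, so the sum is no clear measure of macrophages. Of the 8, 1 was higher at an unadjusted p of 0.05 or less, where 12.5% of all genes were. By limma 0 were called with all libraries and 2 higher without WT replicate 2. All 9 tested stromal markers were higher in Chd8L+/- mice, as were 6588 of 12807 genes, with a median log2 difference of 1.76. At an unadjusted p of 0.05 or less 4 of them were higher, where 12.5% of all genes were. By limma 0 of the stromal markers were called with all libraries. Without WT replicate 2, 3 of the 9 were called higher, where 14.0% of all genes were. Their list summed to 153 to 292 in the 4 other WT libraries, 706 in WT replicate 2 and 233 to 2867 in the Chd8L+/- libraries. C1s1 was highest in Chd8L+/- replicates 5 and 4, at 84.9 and 28.3, where the stromal gene Dcn was also highest, at 419 and 233. The part of these cell types in the values of C1q and C1s1 was not tested.

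Of 8 tested complement regulators, 2 were lower at an unadjusted p of 0.05 or less, where 11.8% of all genes were. Cd55, which speeds the decay of complement convertases at the cell surface, had 3645, 623, 8068, 8376 and 6147 normalized reads in WT replicates 1 to 5 and from 545 to 3422 in Chd8L+/- libraries. WT replicate 2 again lay among the Chd8L+/- values. The log2 difference was −1.45 (adjusted p = 0.196, limma), and −2.12 without that library (adjusted p = 0.0113). Blocking on the library-name letter also led to a call (adjusted p = 0.0434, limma). Its paralog Cd55b, with which it may share reads, differed by −1.52 and −2.16, and was called in the same fits (adjusted p = 0.0436 with the letter block, 0.0214 without WT replicate 2, limma). C4bp, the C4-binding protein, differed by −1.09 (adjusted p = 0.160, limma) and was called by DESeq2 on all 12 libraries (adjusted p = 0.0245). Among receptors, Itgam, a chain of complement receptor 3, differed by 1.35 and Cd93 by 1.21, both called without WT replicate 2 (adjusted p = 0.0123 and 0.0323, limma). Itgam was also called with the letter block (adjusted p = 0.0434, limma) and by DESeq2 on all libraries (adjusted p = 0.0231). Calr, the collectin receptor calreticulin, differed by 0.29 (adjusted p = 0.261, limma).

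Other secreted gut lectins had no common direction with Mbl2: of 12 tested, 2 were lower and 3 higher at an unadjusted p of 0.05 or less, beside 11.8% and 12.5% of all genes. Lgals3 (galectin 3) averaged 15155 in WT and 6674 in Chd8L+/- mice, a log2 difference of −1.13 (adjusted p = 0.121, limma), and passed without WT replicate 2 (−1.46, adjusted p = 0.00312), with the letter block (adjusted p = 0.0494) and by DESeq2 on all libraries (adjusted p = 0.00944). Reg3a, an antibacterial C-type lectin, averaged 376 and 1071 (2.40, adjusted p = 0.121), and passed without it in the higher direction (3.08, adjusted p = 0.00292).

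**Figure D2:**
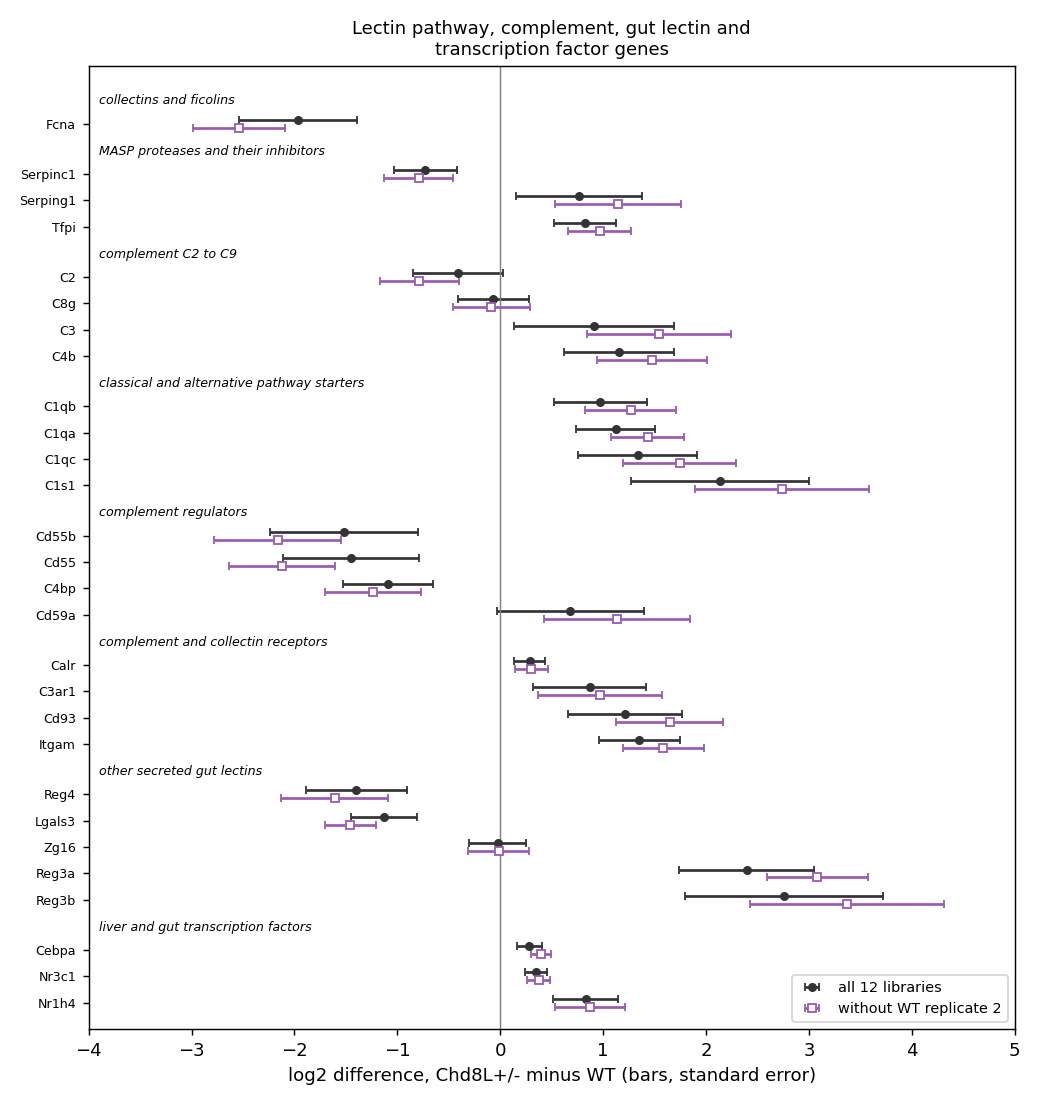
Log2 difference, Chd8L+/- minus WT, with its standard error, of the named genes of the lectin pathway and complement, other gut lectins and transcription factors, with all 12 libraries (filled circles) and without WT replicate 2 (open squares). With all 12 libraries Fcna, at −1.97, is the lowest of these genes and Reg3b, at 2.76, is the highest.

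The transcription factors that act in liver and gut, had a median log2 difference of 0.04. All 17 on the list were tested, and 0 lower and 5 higher ones had an unadjusted p of 0.05 or less, beside 11.8% and 12.5% of all genes. Nr3c1, the glucocorticoid receptor, averaged 2072 and 2649 (log2 difference 0.35), Nr1h4, the bile acid receptor FXR, 416 and 830 (0.83), and Cebpa 693 and 831 (0.28). Of these 3, Nr3c1 and Cebpa were called without WT replicate 2 (adjusted p = 0.0277 and 0.0116, limma). DESeq2 on all libraries called Nr3c1 (adjusted p = 0.0272) and Nr1h4 (adjusted p = 0.0447), both higher.

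Genes near Mbl2 on chromosome 19 had log2 differences from −1.03 to 0.35. Mbl2 was chosen by the size of its difference, so that its neighbours differ less follows from the choice. Within 1000 kb, 31 genes are annotated, 18 of them protein coding, and 13 were in the table, of which 11 were tested. One of the 11 had an unadjusted p of 0.05 or less, where 24.3% of all genes did. It was Il33, an alarmin cytokine 272 kb away, which averaged 527 ± 144 over WT and 311 ± 227 over Chd8L+/- libraries (SD). Its log2 difference was −1.03 (adjusted p = 0.163, limma). Uhrf2, 139 kb away, averaged 474 and 477. Over the 12 libraries, Pearson's r with Mbl2 on the log2 scale ran from −0.66 to 0.70 among the 11, the highest for Insl6, 908 kb away.

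The genes most like Mbl2 over the 12 libraries followed it across the gap between 4 WT libraries and the rest. The 10 with the highest Pearson r of log2 levels were Id2 (0.957), Calm2, Ap3s1, Katna1, Prdx1, Gng5, Rsad1, Ubl5, Slc25a3 and Kctd14 (0.936). These points share library, depth and genotype, and the values of r are a description. Of 12807 genes compared, 74 had an r of at least 0.9 with Mbl2 and 42 one of at most −0.9. The highest, Id2, which encodes an inhibitor of basic helix-loop-helix factors, had 620, 428, 889, 652 and 636 normalized reads in WT replicates 1 to 5 and 327 to 439 in Chd8L+/- libraries. Calm2, a calmodulin gene, had 9199, 5598, 13876, 12850.4 and 12535 in WT and 4508 to 6196 in Chd8L+/- libraries. In both, the 4 other WT libraries were above the rest and WT replicate 2 lay within the Chd8L+/- range, and the same held for all 10 genes. As the 10 were chosen by r over these libraries, this pattern follows from the choice and is no further evidence. Without WT replicate 2, 7.72% of tested genes were lower in Chd8L+/- libraries with no overlap of the groups.

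Their differences were smaller than that of Mbl2, which follows from how Mbl2 was chosen. The log2 differences of the 10 genes ran from −1.74 (Rsad1) to −0.25 (Katna1), as r measures the order and relative spacing of libraries and not the size of a difference. The 5 lowest r belonged to Nrp1 (−0.952), Colgalt1 (−0.950), Itga2 (−0.950), Slc45a4 (−0.941) and Sgsh (−0.939), all of them higher in Chd8L+/- libraries, by log2 differences of 0.42 to 1.15. Nrp1, the coreceptor neuropilin 1, had 20.4, 43.6, 11.1, 12.9 and 13.8 in WT replicates 1 to 5 and 30.2 to 47.2 in Chd8L+/- libraries, a mirror of Mbl2 at a low level. Chd8 itself had an r of −0.915 with Mbl2 over the 12 libraries, where 42 genes had one of at most −0.9. Within the 7 Chd8L+/- libraries its r was −0.812. Large values are common over so few libraries: the 10 highest r there ran from 0.926 to 0.959. Neither r of Chd8 was tested.

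**Figure D3:**
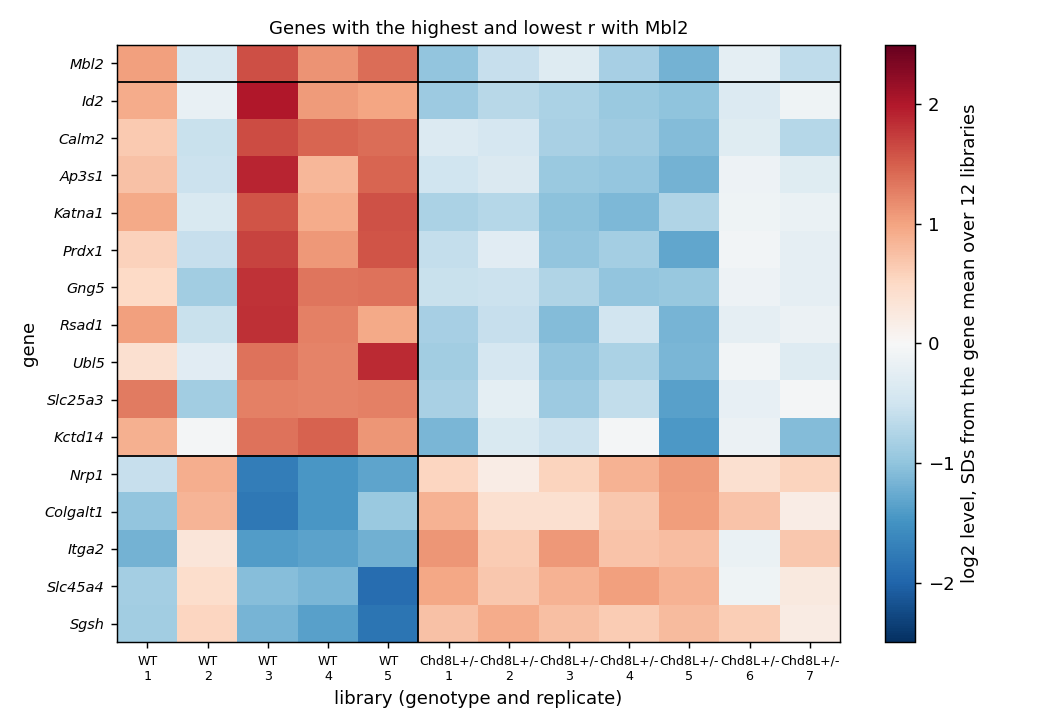
Log2 level of Mbl2 (top row), of the 10 genes with the highest and the 5 with the lowest Pearson r with it (rows below), in SDs from each gene's mean over the 12 libraries (columns). WT replicates 1, 3, 4 and 5 have one colour and WT replicate 2 mostly that of the Chd8L+/- libraries, from r of 0.957 for Id2 to −0.952 for Nrp1.

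Within the Chd8L+/- libraries alone the values of r were lower. The same 10 genes had an r of 0.35 to 0.66 with Mbl2 over those 7 libraries, the best of them ranked 778 of all genes there, and 0 were among the 10 most alike within Chd8L+/-. With levels centred by genotype, Gm5523 (r 0.923 over 12 libraries), Ccnc, Gng5, Dnah6 and Pdzd11 came first. Of these, Gm5523 averaged 10.8 normalized reads, close to the filter of 10, and Dnah6 had 1.01 in WT replicate 2. The centred r of the genes that came first ran from 0.61 to 0.89 once WT replicate 2 was left out, where the 10 genes above had 0.49 to 0.67. The former were chosen by centred r and the latter were not, so this contrast follows in part from the choice.

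Because Mbl2 splits the 12 libraries into separate clusters, its relation to gut segment and cell type markers was examined within the 7 Chd8L+/- libraries only. Of 12 marker lists, 0 had a relation that passed the test after adjustment over the 12 (exact permutation over pairings, two-sided, smallest adjusted p = 0.310). The list nearest to it was the distal small intestine (Pearson's r = −0.78, exact permutation p = 0.0258, Spearman's rho = −0.75, exact permutation p = 0.0663). Without the 2 libraries farthest from the median of that list r kept its sign but was weaker, at −0.53 (exact permutation p = 0.367, not adjusted). The size of the relation thus depends on them. Several other lists moved as much or more when their own 2 farthest libraries were left out. For colon markers r went from 0.44 to 0.93 (exact permutation p = 0.0333, not adjusted), for tuft cells from 0.39 to 0.77 and for enterocytes from −0.08 to −0.83. For cell division it turned from 0.56 to −0.36 and for proximal small intestine markers from 0.07 to −0.29. For myeloid markers it went from −0.66 to −0.20. The change was smaller for goblet cells, from −0.57 to −0.47, and for hepatocytes, from −0.27 to −0.28. Between the depth of a library and Mbl2 the relation did not pass the test either (r = 0.07, exact permutation p = 0.874).

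Some marker lists differed between the same libraries as Mbl2 did, and their part in its difference was not tested. All 15 tuft cell markers were lower in Chd8L+/- mice at an unadjusted p of 0.05 or less, where 11.8% of all genes were. Their summed level was 13801 to 30075 in the 4 other WT libraries, 3272 in WT replicate 2 and 1918 to 12751 in the Chd8L+/- libraries. By limma 0 of the 15 were called with all libraries. Without WT replicate 2, 14 were called lower, where 13.6% of all genes were. Trpm5, the cation channel of tuft cells, averaged 3459 and 1029, a log2 difference of −1.65 (adjusted p = 0.130, limma). Without WT replicate 2 the difference of Trpm5 was −2.23 (adjusted p = 0.00556, limma). Of 15 cell division genes, 14 were higher at an unadjusted p of 0.05 or less, where 12.5% of all genes were, with sums of 3623 to 8422 in the 4 other WT libraries, 16166 in WT replicate 2 and 9295 to 16975 in Chd8L+/- libraries. The mean log2 level of enterocyte markers was 15.1 to 15.3 in the 4 other WT libraries, 14.3 in WT replicate 2 and 14.50 ± 0.39 (SD, n = 7) in Chd8L+/- libraries.

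Gut segment markers overlapped more. The mean log2 level of proximal small intestine markers was 11.5 to 12.5 in the 4 other WT libraries, 11.7 in WT replicate 2 and 10.6 to 12.2 in the Chd8L+/- libraries, and that of colon markers 7.63 to 9.73, 10.2 and 8.14 to 10.2. Hepatocyte markers were included because the liver is the best known source of Mbl2. Of 15 such markers 7 were measured, and the other 8, Alb, Fga, Fgb, Fgg and Ahsg among them, were not analysed here. The sum of the 7 was 3087 to 8881 in the 4 other WT libraries, lower than the 17333 of WT replicate 2 and the 9570 to 20638 of the Chd8L+/- libraries. Most of this sum is Cps1, which the gut epithelium also expresses. The mean log2 level of the list overlapped between the groups, at 6.07 to 6.47 in the 4 other WT libraries, 6.65 in WT replicate 2 and 5.81 to 7.01 in the Chd8L+/- libraries.

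**Figure D4:**
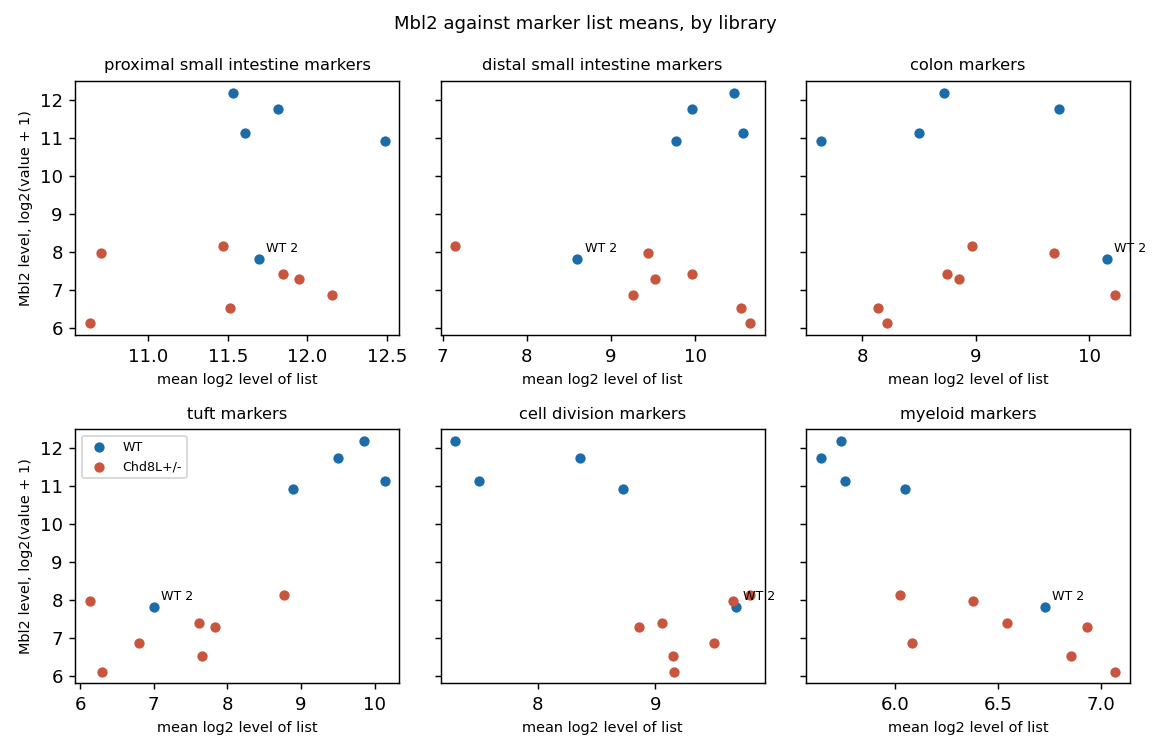
Mbl2 level, log2(value + 1), against the mean log2 level of 6 marker lists, with 1 point per library and WT replicate 2 named. In the tuft cell panel the 4 other WT libraries lie to the upper right, at list means of 8.89 to 10.1 against 6.14 to 8.77 in Chd8L+/- libraries, and in the distal small intestine panel Chd8L+/- points fall from left to right (r = −0.78).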

How the data were processed

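RNA of gut epithelial cells from 12 mice was sequenced by the authors. They aligned reads with Tophat2 (mm10) before running DESeq2. How reads were assigned to genes, with which annotation and whether by strand, is not given in the sources used here. The deposited signal is, for a gene in a library, its count divided by that library's size factor. Dividing by the value of 1 read gave whole reads for 100% of values (largest deviation 0.000146). All 12 columns were matched by library name, 0 columns belonged to other samples, and groups came from the labels.

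Genotypes were compared with limma 3.58.1 in R 4.3.3 (empirical Bayes moderation with an intensity trend). The 12808 genes averaging 10 or more entered as log2(value + 1), without a block, with Benjamini-Hochberg adjustment at 0.05. The test planned for raw counts was not used, as the values are normalized. The fit was tested on simulated data. Alternatives were pseudocounts of 0.5 and 5, other filters, quantile scaling, count models on the recovered reads (DESeq2 1.42.0, edgeR 4.0.16), blocks and each library left out. edgeR and DESeq2 without WT replicate 2, and likeness within Chd8L+/- libraries, were added after seeing the data. Positions came from GENCODE M21 on mm10, to which 14050 rows (98.6%) matched by symbol. The 21 rows whose names became dates and 2 repeated names are not named.

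Mbl2 and the lists were chosen with earlier results of these data known. Named genes were all measured collectins, ficolins, MASP proteases and inhibitors, the 4 smallest unadjusted p of each other pathway list, the 10 highest and 5 lowest r with Mbl2, the 5 highest r after centring by genotype, and genes within 1000 kb. One gene that this rule names is not reported here. The text gives some of the others, and gives genes with r within Chd8L+/- by number only.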

Additional observations from a re-analysis of the deposited data

Results flagged for a closer look

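In each group of libraries, the highest and lowest value of each named gene or list mean was compared with the others by Dixon's rule, on the log2(value + 1) scale. Of 84 groups, 6 held a library that stood apart, where chance flags about 1 in 20, or 4.2 of 84.

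WT replicate 2 stood apart 4 times. Mbl2 was 7.81 there and 10.9 to 12.2 in the other WT libraries, with a gap of 0.711 of the range, just past the critical value of 0.710. Lgals3 was 12.5 there and 13.8 to 14.2 in the others. The enterocyte list mean was 14.3 there and 15.1 to 15.3 in the others. C3 was 7.99 there, above 4.59 to 5.35 in the others. These 4 values come from 1 mouse and are not independent, and what sets that library apart was not tested.

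Serping1 was 6.24 in Chd8L+/- replicate 5, the library with the lowest Mbl2, and 3.20 to 4.14 in the other Chd8L+/- libraries. The same library had the highest normalized counts of the stromal genes Dcn (419) and Myh11 (474) and of C1s1 (84.9) and C3 (522), and their part in the Serping1 value was not tested. The distal small intestine list mean was 7.15 in Chd8L+/- replicate 6, the Chd8L+/- library with the highest Mbl2, and 9.26 to 10.7 in the others.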

How the results depend on the processing

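The log2 difference of Mbl2 kept its direction in every alternative run, from −4.31 (without WT replicate 2) to −3.21 when 1 library was left out. The number of genes called, 3 with all libraries, was 5 with edgeR, 805 with DESeq2 (575 lower, 230 higher), 451 with the letter of the library name as a block (276 lower, 175 higher), 0 with its number as a block, and 0 to 3534 when 1 library was left out, where WT replicate 2 gave the highest. Without that library edgeR called 3365 and DESeq2 4068 genes. Among lectin and complement genes, 12 stood at an unadjusted p of at most 0.05, of 32 tested, against 7 of 19 tested when 10 was required in every library, 19 with DESeq2 without WT replicate 2, and 4 (without WT replicate 3) to 15 with 1 library left out. Called were 0, against 3 with DESeq2, 5 with the letter block, 9 with edgeR and 15 with DESeq2 without WT replicate 2, and 0 to 10 with 1 library left out. The cause was not tested.

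With the replicate block, 0 genes were called, 5 lectin and complement genes stood at an unadjusted p of at most 0.05 and Mbl2 differed by −3.78. Same-numbered libraries correlated by −0.34 to 0.19 in their deviations from the genotype means. For libraries that share a library-name number these r ran from −0.62 to 0.22. Such values, from a few libraries centred by genotype, cannot show whether either number pairs the mice. Over 12 libraries centred by genotype, 2 of 12 marker lists were related to Mbl2 at an adjusted p of 0.05, against 0 within Chd8L+/-. The largest centred r were −0.79 for myeloid and 0.73 for tuft cell markers. In both lists WT replicate 2 lay outside the other WT libraries. Its mean was 6.73 against 5.64 to 6.05 for myeloid markers, and 7.01 against 8.89 to 10.1 for tuft cell markers. How far these r rest on that library was not tested. Of the 10 genes most like Mbl2, 6 stayed among the first 10 after quantile normalization, 1 after centring, 0 by Spearman's rho, 0 within Chd8L+/- and 4 to 10 with 1 library left out. C8g changed sign without WT replicate 5, Chd8L+/- replicate 1 or Chd8L+/- replicate 2, in a range from −0.31 (without WT replicate 4) to 0.10. Among the 8 libraries with the fewest Mbl2 reads most neighbours had overlapping counting intervals, and their order was not tested.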
